A study of Mus musculus with 8 samples.

Results

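The WFS1 peaks of mouse chromosome 15 were examined, 1512 of the 22292 peaks of the combined set from wildtype C2C12 myoblasts. The members were selected on the measured peak density, since chromosome 15 held the most peaks per Mb of the 19 autosomes, 14.5 per Mb, with chromosome 11 next at 13.7 per Mb. That rank is the rule of choice and not a result. C2C12 is an established line of mouse muscle precursor cells, kept here in the proliferating, undifferentiated state, and the cells were wildtype. Both libraries used here came from 1 chromatin immunoprecipitation with an antibody to WFS1, after crosslinking with DSG and formaldehyde, and differ in sonication, 30 cycles for the first and 36 cycles for the second, which was a part of the same precipitate given another 6 cycles. Of the 8 libraries in the series, 6, namely the inputs and the WFS1 ChIP and inputs of WFS1 knockout cells that express WFS1-FlagTag, were not used here.

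Each condition had 1 library and the pair are not replicates, so no test was possible and no p-value is given. The deposited lists hold the position of each peak and no height, score or read count, and how deeply the libraries were sequenced is unknown. The list after 30 cycles held 18283 peaks, 1273 of them on chromosome 15, and the list after 36 cycles 12674, of which 939 were on chromosome 15. Overlapping peaks of both lists were joined, and a joined peak is said to be called in both lists when it holds peaks of each. Intervals in parentheses are 95% intervals and cover counting error over peaks, bins or genes only, and the range over the other 18 autosomes is given as the measure of spread. Intervals of ratios take peaks as independent, and peaks cluster, so these intervals are too narrow. Positions are on GRCm38 and counted from 1.

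WFS1 is a membrane protein of the endoplasmic reticulum, known for its role in calcium balance and the stress response of that organelle and for its loss in Wolfram syndrome, and a part of the protein resides in the inner nuclear membrane. Membrane proteins of this layer can hold chromatin at the nuclear periphery. The antibody recovers DNA that was crosslinked to WFS1 directly or through other proteins, so a peak marks a place of association and not necessarily a contact of WFS1 with DNA. Mouse chromosomes carry the centromere at one end, and the first 3 Mb of chromosome 15 are unsequenced in this build, which left 101 bins of 1 Mb for the profile. Bins are numbered from the centromeric end.

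Sequences from dense bins are shown first, as examples of what the peaks cover. The 10 densest bins held 28.5% of the peaks of the chromosome. For 5 of the 6 densest bins, all but the densest, bin 103, the central 200 bases of the widest peak are given on the plus strand of GRCm38. Capitals mark TGACTCA, the core site of AP-1 factors such as Fos and Jun, read on both strands (TGACTCA or TGAGTCA), and CAGCTG, an E-box that is its own reverse complement and is used by MyoD and other myogenic factors. All 5 peaks were called in both lists and were 1446 to 1900 bp wide. The sites do not overlap each other. The first is from bin 60, 102 kb beyond the end of Trib1, and the second from bin 78, between Myh9 and Txn2. The third is from bin 86, in an intron of the noncoding gene Gm49539. The fourth, from bin 39, lies 15.6 kb beyond the end of Azin1, with its centre 48.4 kb from the start site. The last, from bin 100, lies 0.282 kb beyond the end of Aqp2 and 5.77 kb from its start site.
Bin 60, chr15:59759800-59759999: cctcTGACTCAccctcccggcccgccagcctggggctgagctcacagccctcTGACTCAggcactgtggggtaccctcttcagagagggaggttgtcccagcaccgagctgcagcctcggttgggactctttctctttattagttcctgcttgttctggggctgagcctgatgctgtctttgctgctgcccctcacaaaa
Bin 78, chr15:77882402-77882601: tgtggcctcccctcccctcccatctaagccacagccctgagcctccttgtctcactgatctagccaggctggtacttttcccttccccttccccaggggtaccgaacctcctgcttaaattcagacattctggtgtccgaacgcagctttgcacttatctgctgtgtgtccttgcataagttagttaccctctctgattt
Bin 86, chr15:85654060-85654259: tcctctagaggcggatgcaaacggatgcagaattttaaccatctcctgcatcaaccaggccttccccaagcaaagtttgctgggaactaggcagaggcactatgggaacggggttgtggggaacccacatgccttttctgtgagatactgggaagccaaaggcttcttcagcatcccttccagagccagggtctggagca
Bin 39, chr15:38470762-38470961: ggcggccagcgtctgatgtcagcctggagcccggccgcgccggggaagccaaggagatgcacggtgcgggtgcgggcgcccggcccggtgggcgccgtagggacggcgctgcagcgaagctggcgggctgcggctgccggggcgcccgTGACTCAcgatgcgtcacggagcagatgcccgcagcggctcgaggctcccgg
Bin 100, chr15:99585493-99585692: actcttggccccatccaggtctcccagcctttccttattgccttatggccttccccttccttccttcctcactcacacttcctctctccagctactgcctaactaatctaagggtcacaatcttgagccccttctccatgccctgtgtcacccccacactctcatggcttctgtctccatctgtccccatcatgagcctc

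TGACTCA was present in 2 of these windows, at 1 place in that of bin 39 and at 2 places in that of bin 60, and CAGCTG in none. The window of bin 39 was 77% G and C, and the others 53% to 60%. An occurrence is a match of letters and not evidence of a bound factor. Further windows were chosen after the values were seen. They come from the peak nearest the Myc start site and from the widest peak of bins 24 and 63, described below, which lack a protein-coding start site. The peak of bin 24 lies beyond the end of Cdh18 and that of bin 63 in an intron of Pvt1. Of these, the Myc window held 1 CAGCTG and the others held neither sequence.
Bin 24, chr15:23581453-23581652: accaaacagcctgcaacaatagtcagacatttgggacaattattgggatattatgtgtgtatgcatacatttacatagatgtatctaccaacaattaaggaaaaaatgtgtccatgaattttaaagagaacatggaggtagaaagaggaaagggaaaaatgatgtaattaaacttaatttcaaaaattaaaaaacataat
Bin 63, chr15:62328260-62328459: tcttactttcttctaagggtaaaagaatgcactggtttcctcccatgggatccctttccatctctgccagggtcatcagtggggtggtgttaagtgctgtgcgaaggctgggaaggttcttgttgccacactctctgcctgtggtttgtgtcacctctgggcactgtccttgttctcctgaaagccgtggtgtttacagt
Myc, chr15:61984930-61985129: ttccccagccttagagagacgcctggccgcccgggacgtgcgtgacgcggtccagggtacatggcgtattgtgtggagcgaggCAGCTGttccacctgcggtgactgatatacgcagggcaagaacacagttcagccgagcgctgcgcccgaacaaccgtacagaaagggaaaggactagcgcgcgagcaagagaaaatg

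Over all 1512 peaks of chromosome 15, TGACTCA was present in the central 200 bp of 263 (17.4%, 15.6 to 19.4) and CAGCTG in 257 (17.0%, 15.2 to 18.97). Among the 20508 peaks of the other autosomes, the shares were 18.01% and 18.1%, with ranges of 16.5% to 21.7% and 15.0% to 21.04% over the autosomes. Both shares of chromosome 15 therefore lay inside the spread of the other autosomes. Of the 503259 consecutive windows of 200 bp on chromosome 15, 3.15% held TGACTCA and 7.47% CAGCTG.

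The next question was whether the density followed the genes. Chromosome 15 was not rich in genes, with 785 protein-coding start sites or 7.54 per Mb, the eleventh highest of the 19 autosomes, against 5.35 to 13.9 on the others. It held 1.93 peaks per protein-coding gene, and the other autosomes 0.466 to 1.497. When each 1 Mb bin was set beside the mean of bins on the other autosomes with as many protein-coding start sites, 813 peaks were expected on chromosome 15 and 1512 observed, a ratio of 1.86 (1.77 to 1.95). The same ratio was 0.593 to 1.36 on the other autosomes, lowest on chromosome 7 and highest on chromosome 10. This ratio shares its peaks with the rule of choice and describes the size of the excess. Without the 10 densest bins it was 1.55 (1.46 to 1.65), still above the range of the others, whose own dense bins were kept. The highest class has no upper limit, and gene-dense bins elsewhere include stretches with few peaks. On chromosome 7, positions 102000001 to 109000000 held 8 peaks at 38.7 start sites per Mb. The part of such stretches in the ratio was not tested.

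**Figure D1:**
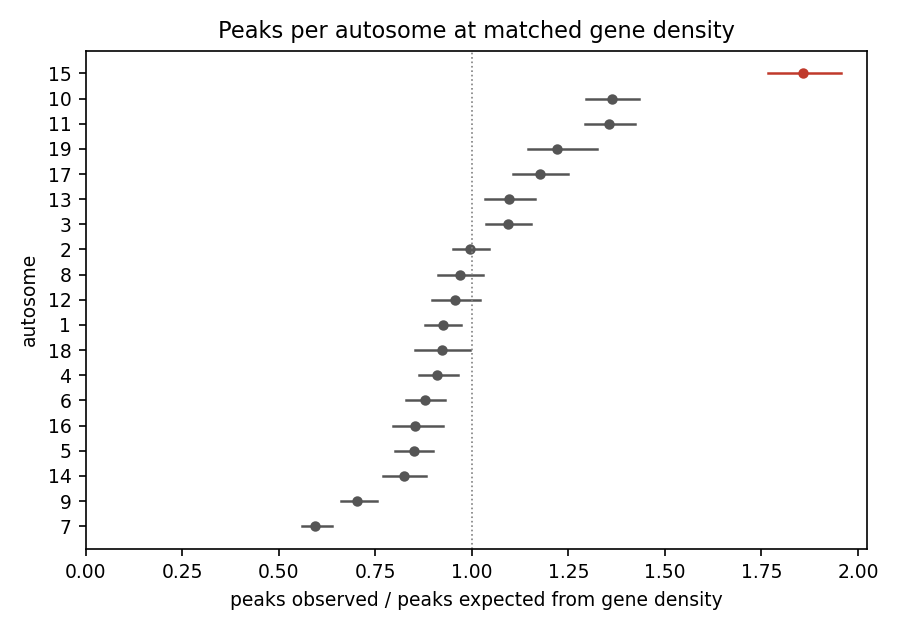
Peaks observed over peaks expected from the number of protein-coding start sites per 1 Mb bin, for each of the 19 autosomes (points) with 95% Poisson intervals of the observed count (lines). Chromosome 15 (red) lies at 1.86, and the other autosomes lie between 0.593 and 1.36.

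The excess was present in every class of gene density, with a weak base among bins without a protein-coding start site. Such bins can still hold noncoding genes or parts of coding genes, as bins 24 and 63 do. In the 10 bins with 10 to 19 protein-coding start sites, chromosome 15 held a mean of 23.9 peaks per bin (SD 8.44) against 13.4 (SD 9.05) in 470 bins of the other autosomes. In the 14 bins with 20 or more, the mean was 28.1 (SD 16.4) against 13.8 (SD 10.3). In the 41 bins with 1 to 4 it was 10.6 (SD 7.95) against 5.64 (SD 6.36), and in the 22 bins with 5 to 9 it was 16.4 (SD 13.8) against 10.3 (SD 7.78). In these 4 classes no other autosome reached the density of chromosome 15. In the 14 bins with no protein-coding start site the mean was 6.14 against 1.99, a ratio of 3.09 (2.43 to 3.89), but it rested on bins 24 and 63. In this class 1 other autosome was denser than chromosome 15, with 6.18 peaks per Mb against 6.14. Without bin 24 the ratio was 1.97 (1.45 to 2.63), and without both bins the mean was 1.92, a ratio of 0.964 (0.605 to 1.46). These bins were left out for their high counts, while the other autosomes kept their own densest bins, so the last ratio is a lower reading and no test of equality. The medians in this class were 2 peaks per bin on chromosome 15 and 1 elsewhere, and 8 of the 14 bins lay above the expected number.

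**Figure D2:**
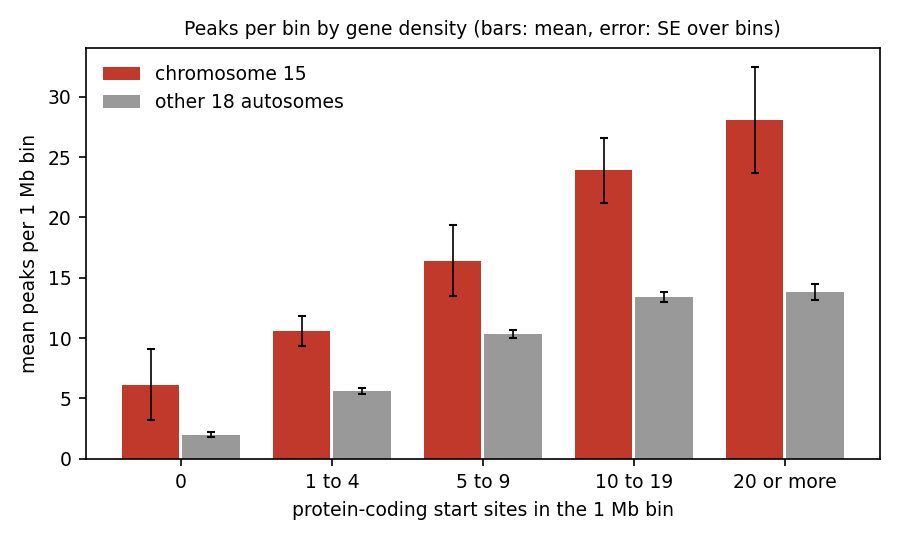
Mean number of WFS1 peaks per 1 Mb bin (bars) with the standard error over bins (lines), by the number of protein-coding start sites in the bin, for chromosome 15 (red) and the other 18 autosomes (grey). In bins with 20 or more start sites the means were 28.1 and 13.8, and the leftmost pair, 6.14 against 1.99, rests on 2 bins of chromosome 15.

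Along the chromosome the bins ranged from 0 to 64 peaks, with quartiles of 4 and 23 and a median of 12, against a median of 7 on the other autosomes. Of the 101 bins, 73 lay above their expected number (72.3%, against 37.4% of bins elsewhere), and 37 held more than 2 times the expected number (36.6% against 11.6%). Only 4 bins were empty (3.96% against 13.4%). These were bins 15 and 16, in a gene desert, bin 47, also without a protein-coding start site, and bin 93, with Cntn1 and Pdzrn4. The longest stretch without a peak was 3.003 Mb, from position 13666310 to 16669358, upstream of Cdh9. The number of peaks per bin rose with the number of protein-coding start sites (Spearman's rho 0.60 over 101 bins, 0.52 over the 2302 bins elsewhere) and with the GC content of the bin (rho 0.64), given as a description because neighbouring bins are not independent.

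**Figure D3:**
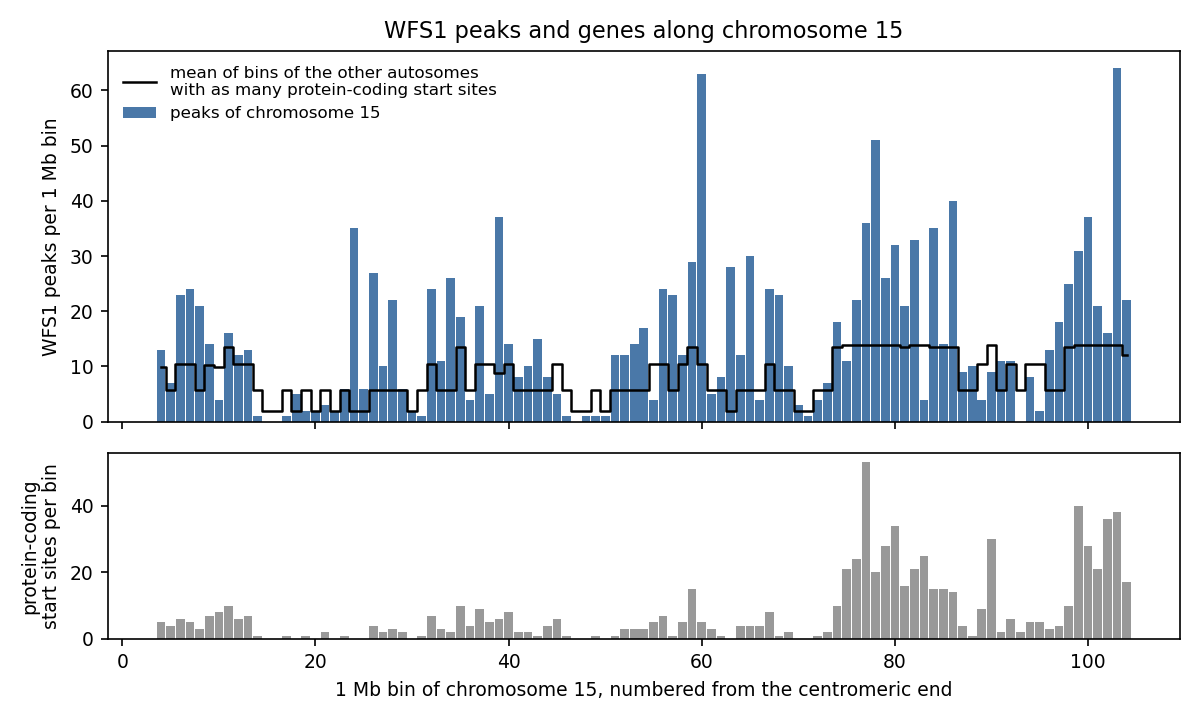
WFS1 peaks per 1 Mb bin of chromosome 15 (blue bars, top) with the mean of bins on the other autosomes in the same class of gene density (black line), and protein-coding start sites per bin (grey bars, bottom). Bars rise above the line in 73 of 101 bins spread over the whole length, highest in bins 103 (64 peaks) and 60 (63 peaks).

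Step changes in density, such as a change in the number of copies of part of a chromosome could give, were sought by dividing the profile into segments after the adjustment for gene density. Chromosome 15 formed 1 segment. The other autosomes formed 1 to 5, with 9 of 18 undivided. The penalty used lets a step near the middle count from about 1.64-fold, and a step that sets off 10 bins from about 2.30-fold, so smaller or shorter steps were not detectable. Bins of 0.5 or 2 Mb, a grid shifted by 0.5 Mb, either list alone and the double penalty also gave 1 segment. Without the adjustment, 2 segments were found, with 10.6 peaks per Mb up to position 55000000 and 19.7 per Mb beyond it, where most genes lie. With a penalty 0.5 times as large, under which the other autosomes formed 1 to 12 segments, chromosome 15 was divided into 4, with ratios to the expected number of 1.65, 2.19, 0.675 and 2.32. The third of these, chr15:88000001-95000000, held 45 peaks in 7 bins and was the single one under its expected number (0.492 to 0.903). The number of copies of chromosome 15 in these cells was not measured here, and its part in the density was not tested.

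When the chromosome was cut into 5 parts of about equal length, the ratio to the expected number was lowest next to the centromere. It was 1.25 (1.07 to 1.46) in the first part, 2.30 (2.04 to 2.57) in the second, 2.07 (1.83 to 2.32) in the third, 1.98 (1.79 to 2.18) in the fourth and 1.73 (1.55 to 1.91) in the last. Peaks per bin had a mean of 15.0 and an SD of 13.2 over the chromosome, so these intervals are too narrow to set the parts apart. Peaks called in both lists made up 36.1% of the first part (29.2 to 43.6) and 46.2% of the second (40.7 to 51.8). The share was 44.6% in the third, 44.1% in the fourth and 38.6% (33.8 to 43.7) in the last. The median peak width was 359 bp in the first, 459 bp in the second, 432.5 bp in the third, 424 bp in the fourth and 379 bp in the last. In both measures the last part was nearest to the first.

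The peaks of chromosome 15 also differed from those elsewhere in measures that the rule did not use directly. Of the 1512 peaks, 42.4% (39.9 to 44.9) were called in both lists, against 35.1% of peaks elsewhere and 31.8% to 37.99% over the other autosomes. The list after 30 cycles alone contributed 40.7%, and the list after 36 cycles alone 16.9%. The median width was 409.5 bp against 365 to 390 bp, and 9.72% of peaks were 1000 bp or wider against 4.90% to 7.93%. Chromosome 15 ranked first of the 19 autosomes in all 3 measures. Peaks covered 0.772% of its bases, against at most 0.664% elsewhere. Width, presence in both lists and density come from the same 2 libraries and peak calls, and are not independent of each other.

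**Figure D4:**
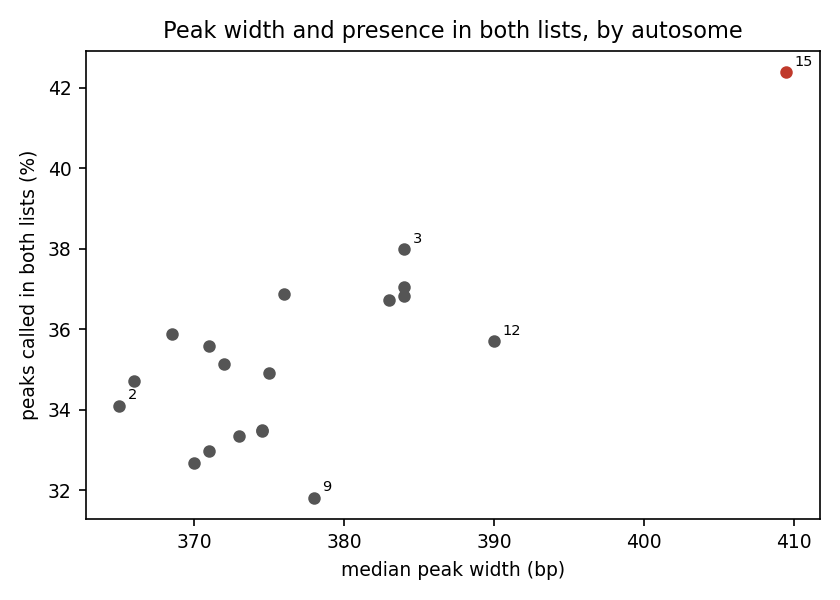
Share of peaks called in both lists against the median peak width for the 19 autosomes (points, axes not starting at 0). Chromosome 15 (red) lies apart at 409.5 bp and 42.4%, while the other autosomes lie between 365 and 390 bp and between 31.8% and 37.99%.

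Set against the pooled density of the other autosomes, the ratio was above 1 in every group of width and highest for the widest peaks. When all peaks were divided into 5 groups of width, the ratio of peaks per Mb to the other autosomes was 1.40 (1.23 to 1.59) in the narrowest group, 195 to 261 bp, and 2.18 (1.96 to 2.42) in the widest, 637 bp and above. It was 2.02 (1.86 to 2.19) for peaks called in both lists, 1.49 (1.37 to 1.61) for peaks called after 30 cycles only and 1.48 (1.30 to 1.68) for those called after 36 cycles only. For the narrowest group and for peaks called after 36 cycles only, chromosome 15 lay inside the range of the others. It held 2.48 narrow peaks per Mb where the highest other autosome held 2.74, with 2 autosomes at or above it, and 2.46 peaks called after 36 cycles only where the highest held 2.79, with 3 at or above it. Within groups of equal width the share called in both lists was nearer to that elsewhere. It was 27.5% against 27.2% in the middle group, 60.9% (55.4 to 66.2) against 54.8% in the fourth and 90.7% (87.4 to 93.2) against 85.8% in the widest.

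In position relative to genes, chromosome 15 lay inside the spread of the other autosomes. Peaks with the centre within 1 kb of an annotated start site made up 17.2% (15.4 to 19.2), inside the range of 11.9% to 21.7%, and 46.3% lay inside genes and 36.5% between genes. The ratio to the other autosomes was 1.71 at start sites, 1.65 inside genes and 1.68 between genes. The mean GC content of the peaks was 48.3%, against 46.0% to 49.96% over the other autosomes, and 9.52% of peaks consisted of repeat bases by more than 50%, against 8.32% to 13.6%. The median distance between neighbouring peaks was 17.995 kb against 25.5 kb elsewhere.

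Seen from the genes, 323 of the 785 protein-coding genes had a peak at most 10 kb from the start site (41.1%, 37.8 to 44.6), where 26.2% of all 20807 protein-coding genes of the autosomes did. Within 1 kb the count was 190 (24.2%, 21.3 to 27.3) beside a background of 13.8%, and the share was 6.67% to 19.1% on the other autosomes. Within 50 kb it was 590 (75.2%) beside 56.1%. The share within 1 kb was 34.3% (24.1 to 46.3) in the gene-poor first part of the chromosome and 21.03% (16.7 to 26.1) in the gene-rich last part. These shares contain the excess of peaks that chose the chromosome.

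The densest bin was bin 103 (chr15:102000001-103000000), with 64 peaks where 13.9 were expected, 50 in the list after 30 cycles and 35 in that after 36 cycles. It is one of the gene-rich bins, with 38 protein-coding start sites. Of these, 29 had a peak within 10 kb, where 41.1% of all protein-coding genes of the chromosome did, but the bin was picked for its many peaks. Here lies most of the Hoxc cluster, homeobox genes that set position along the body axis. Hoxc5, Hoxc8, Hoxc9, Hoxc10 and Hoxc11 each had 12 peaks within 50 kb of the start site, which are largely the same peaks. One of them, of 505 bp and called in both lists, covered the annotated start of Hoxc5 and lay 0.603 kb inside Hoxc10. The annotated Hoxc5 is 49.987 kb long and begins inside Hoxc10, so this peak counts for both genes. Sp1, a transcription factor of GC-rich promoters, had 11 peaks within 50 kb, as did Sp7, a factor of bone formation, and Itgb7, an integrin subunit. The nearest peak to the start of Itgb7 was 1082 bp wide, called in both lists and 0.334 kb downstream. In this bin 20 of the 64 peaks were called in both lists, and the median width was 351 bp, below that of the chromosome.

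Bin 60 (chr15:59000001-60000000) held 63 peaks with 5 protein-coding start sites, 6.07 times the expected number and the largest difference from it, 52.6 peaks, on the chromosome. Its list counts were 49 and 44, and 27 peaks were called in both. Mtss1, which encodes a membrane and actin binding protein, held 18 peaks in its 141 kb, 10 of them called in both lists. The gene, chr15:58941234-59082005, reaches into bin 59, so not all 18 need lie in bin 60. Its nearest peak lay 0.435 kb downstream of the start. Nsmce2, a SUMO ligase of the SMC5/6 complex, held 20, of which 5 were called in both. Trib1, a pseudokinase that regulates protein turnover, had a peak of 642 bp over its start site, called in both lists. Sqle, an enzyme of cholesterol synthesis in the same bin, had 1 peak within 50 kb, 23.8 kb from its start. Up to 17 peaks lay within 100 kb, at chr15:59064329-59160804.

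Bin 78 (chr15:77000001-78000000) held 51 peaks against 13.9 expected, and 26 of them lay in 96.5 kb around the start of Myh9, the heavy chain of non-muscle myosin IIA. Myh9 had more peaks within 50 kb of its start site than any other gene of the chromosome, 25, of which 11 were called in both lists, 7 in the first list only and 7 in the second only. The median over all 785 genes was 2. The same bin holds the apolipoprotein L cluster and Mb. Of its 20 protein-coding genes 4 had a peak within 10 kb of the start, where 41.1% of all protein-coding genes of the chromosome did.

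Bin 86 (chr15:85000001-86000000) held 40 peaks, and 25 of them lay in 87.9 kb (chr15:85599078-85686959), between Wnt7b and Ppara. Wnt7b, a secreted ligand, had 8 peaks within 50 kb, and the nearest lay 7.61 kb downstream of its start. Ppara, a nuclear receptor of fatty acid metabolism, had 2, the nearest 26.3 kb upstream. Of the 40 peaks, 1 had its centre within 1 kb of an annotated start site, against 17.2% of all peaks of the chromosome.

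Bins 39 and 100 were tied at 37 peaks. In bin 39 (chr15:38000001-39000000), with 6 protein-coding start sites and 8.84 peaks expected, Klf10, a transcription factor induced by TGF-beta, had a peak of 1195 bp over its start site, called in both lists. Azin1, an inhibitor of antizyme that raises polyamine synthesis, had 10 peaks within 50 kb, 7 of them called after 30 cycles only, and Baalc had a peak of 1274 bp over its start site, called in both lists. In bin 100 (chr15:99000001-100000000), with 28 start sites, Tmbim6, an inhibitor of cell death in the membrane of the endoplasmic reticulum, had 14 peaks within 50 kb, the second highest number of the chromosome. Fmnl3, a formin that builds actin filaments, had 10, and Tuba1c, an alpha tubulin, had a peak of 1075 bp over its start site, called in both lists. The order of bins depends on the grid. When it was shifted by 0.5 Mb, the first place went to chr15:58500001-59500000, around Mtss1, with 57 peaks, and the second to chr15:98500001-99500000 with 52.

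The bins with most peaks among those without a protein-coding start site, over all autosomes, were bins 24 and 63 of chromosome 15. Elsewhere the highest were 22 and 21, both on chromosome 10. Bin 24 (chr15:23000001-24000000) held 35 peaks where 1.99 were expected, 28 and 21 in the lists after 30 and 36 cycles, and 13 called in both. It is poor in GC at 36.6%. It contains the distal end of Cdh18, a cadherin known from neurons, which holds 8 of the peaks. Another 16 peaks lay beyond the gene in 97.2 kb (chr15:23486520-23583704), where the annotation lists a processed pseudogene and no other gene. The widest of these was 2540 bp. The start site of Cdh18 itself had no peak within 50 kb, with the nearest 93.6 kb upstream.

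Bin 63 (chr15:62000001-63000000) held 28 peaks, 27 and 18 in these lists and 14 called in both, next to Myc. Pvt1, a long noncoding RNA gene downstream of Myc at chr15:62037986-62378096, held 13 of them, and the noncoding gene Gm41333 held 4. Myc, which encodes a transcription factor of growth and proliferation, had 8 peaks within 50 kb of its start site, 5 of them called in both lists. A peak of 1133 bp ended 0.917 kb upstream of the start, one of 405 bp ended 0.159 kb upstream, and one of 2230 bp began 0.482 kb downstream inside the gene, all called in both lists. The other 5 lay 3.25 to 43.1 kb downstream.

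Among bins below their expected number, bin 83 (chr15:82000001-83000000) had the largest deficit, 4 peaks where 13.9 were expected. It holds 25 protein-coding start sites, among them a cluster of Cyp2d genes, cytochrome P450 enzymes of the liver, and also Srebf2, a regulator of cholesterol synthesis. Bin 95, with Adamts20 and Irak4, held 2 peaks where 10.4 were expected. Bin 55, with Tnfrsf11b and Enpp2, and bin 89, with Brd1 and Creld2, held 4 peaks each where 10.4 were expected.

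The 5 widest peaks of the chromosome were called in both lists, and each joined 2 to 4 of the deposited peaks. The widest spanned 3796 bp at chr15:6056413-6060208, 240 kb from Dab2, an adaptor of endocytosis. The next, 2969 bp at chr15:33905817-33908785, lay 174 kb from Mtdh, and the third, 2824 bp at chr15:31185574-31188397, lay 35.9 kb from Dap. The fourth, 2682 bp at chr15:98526161-98528842, covered an exon of Kansl2, a subunit of a histone acetyltransferase complex, and the fifth, 2618 bp at chr15:26378274-26380891, lay in an intron of March11. None of the 5 had its centre at a start site, where 17.2% of all peaks of the chromosome did. The central 200 bp held CAGCTG in 3 of them, against 17.0% of all its peaks.

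Gene groups of the chromosome were described by the share of members whose start site had a peak at most 10 kb away, beside 41.1% of all its protein-coding genes. The lists were written with earlier results of these data known and receive no test, and genes in clusters share peaks. Transcription and chromatin regulators stood highest, with 32 of 44 genes (72.7%, 58.2 to 83.7). Peaks covered the start sites of Maff, Klf10, Cbx5 and Tob2, and lay within 0.3 kb of those of Myc, Atf4, Atf1, Nipbl, Arid2 and Ep300. Of these nearest peaks, those of Maff and Cbx5 were called after 30 cycles only and that of Ep300 after 36 cycles only. The others were called in both lists. Rad21, the cohesin subunit, and Grhl2, an epithelial factor, had none within 50 kb.

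Growth factor and cytokine signalling genes had a peak within 10 kb in 20 of 29 cases (69.0%, 50.8 to 82.7). Among receptors, those of growth hormone (Ghr), oncostatin M (Osmr), leukemia inhibitory factor (Lifr) and prostaglandin E2 (Ptger4) had one, and Ptger4 had 8 within 50 kb. The nearest peak was called after 30 cycles only for Ghr, Osmr and Lifr, and after 36 cycles only for Ptger4. Among ligands, Wnt10b, Wnt1, Wnt7b, Pdgfb, Gdnf and Angpt1 had one. The nearest was called after 36 cycles only for Wnt10b, after 30 cycles only for Pdgfb, and in both lists for the others. Prlr, the prolactin receptor, had none within 50 kb.

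Genes of the cytoskeleton and its regulators had one in 16 of 26 cases (61.5%, 42.5 to 77.6), with Myh9 and Mtss1 as above. Cdc42ep1, an effector of the GTPase Cdc42, had 11 peaks within 50 kb and one of 980 bp 0.060 kb from its start. The neighbouring alpha tubulin genes Tuba1a, Tuba1b and Tuba1c had 9, 7 and 6, and Mrtfa, the coactivator that links actin to transcription, had 5. Genes of adhesion and extracellular matrix had one in 12 of 22 cases (54.5%, 34.7 to 73.1), an interval that includes the 41.1% of all genes of the chromosome. Ccn4, a secreted matrix protein, had 11 peaks within 50 kb, 8 of them called in both lists, and one of 1623 bp over its start. Plec, the cytolinker plectin, had 13 within 50 kb and none within 10 kb, with the nearest 18.7 kb inside the gene. The focal adhesion kinase gene Ptk2 and the integrin gene Itga5 each had a peak over the start site. That of Ptk2 was called in both lists and that of Itga5 after 36 cycles only.

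In the list written for muscle tissue, 9 of 17 genes had a peak within 10 kb (52.9%, 31.0 to 73.8). This interval likewise includes the 41.1% of all genes of the chromosome. The 9 were Fbxo32, Pfkm, Csad, Cacnb3, Myo10, Oxct1, Rbfox2, Chkb and Asb8. The list was not limited to genes used mainly in muscle, and Plec, Myo10 and Cacng2 were also in other lists. The share is therefore not one of muscle genes alone. Klhl38 and Sntb1 had no peak within 10 kb, like Mb and Pvalb below. Fbxo32, the muscle ubiquitin ligase atrogin-1, had 5 peaks within 50 kb, the nearest 6.003 kb upstream. Mb, myoglobin, had 6, the nearest 12.6 kb from its annotated start. Pfkm, muscle phosphofructokinase, had 1, called after 30 cycles only, 0.262 kb downstream of its start. Pvalb, the calcium buffer of fast muscle fibres, had none within 50 kb.

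Cadherin and neuronal genes and the type II keratin cluster, counted with the adjoining type I gene Krt18, stood lowest. Of 24 cadherin and neuronal genes 3 had a peak within 10 kb (12.5%, 4.34 to 31.0), namely Arc, Gpihbp1 and Cdh10. Of these, Gpihbp1 is known from capillary endothelium and was also in the Ly6 list. Of 25 keratin genes, which mark epithelial cells, 3 had one (12%, 4.17 to 30.0), namely Krt8, Krt80 and Krt81. Krt8 and Krt18, the keratins of simple epithelia, had 7 peaks each within 50 kb, at 2.41 and 11.4 kb, while 15 of the 25 had none. Of 17 genes of the Ly6 cluster, surface proteins of blood and epithelial cells, 7 had a peak within 10 kb (41.2%, 21.6 to 64.0), close to the share of all genes of the chromosome. Ly6a, known as Sca-1, had 2 within 50 kb, the nearest 1.95 kb inside the gene.

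**Figure D5:**
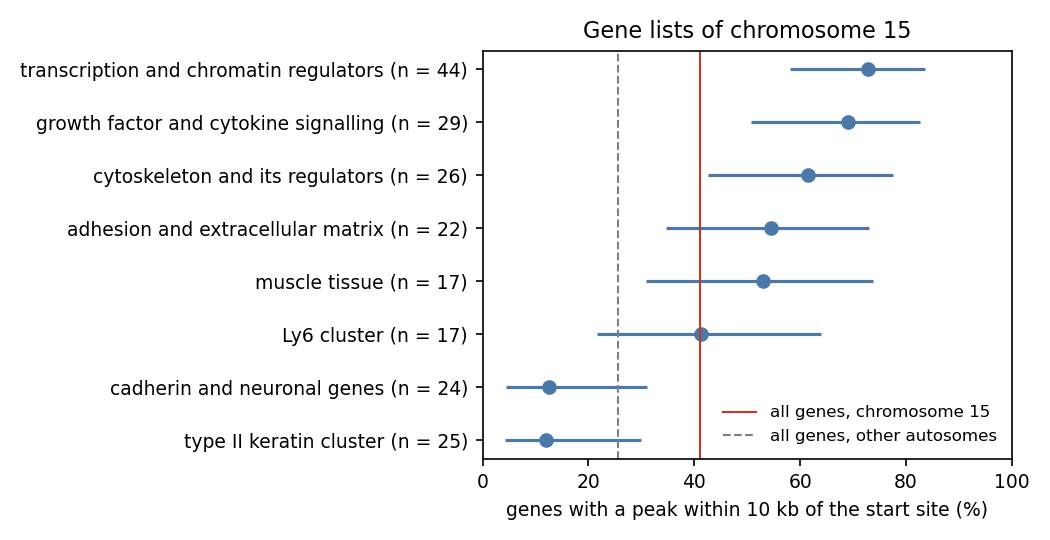
Share of each list on chromosome 15 whose start sites had a WFS1 peak at most 10 kb away (points) with 95% Wilson intervals (lines). The share of all protein-coding genes was 41.1% on chromosome 15 (red line) and 25.6% on the other autosomes (dashed line). The lists range from 12% for the type II keratin cluster, with Krt18, to 72.7% for transcription and chromatin regulators.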

How the data were processed

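The authors sheared chromatin for 30 cycles before immunoprecipitation, sonicated a part of the precipitate for another 6 cycles, aligned the reads with NextGenMap to GRCm38, filtered them on mapping quality in samtools, and ran the peak caller MACS2 on each library separately. The control used in peak calling is not given in the sources used here. The deposited files hold peak positions (chromosome, start and end) and no signal, so a peak is present or absent and its width depends on the depth and threshold of the call. Read numbers are unknown. SAMtools, deepTools and MACS2 are named in the submitters' processing notes.

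Both lists were joined with bedtools merge (2.31.1), with 1 bp of overlap as sharing. Samples were grouped by their labels. The annotation was GENCODE mouse release 21 (Ensembl 96), and sequences came from the GRCm38 reference. Each gene had 1 start site, the outermost, so other starts within a gene, as in Hoxc5, Mb or Plec, were not considered. The sequence of 1 peak is not reported here. Expected peaks were the mean per base of bins on the other 18 autosomes in 5 classes of protein-coding start sites (0, 1 to 4, 5 to 9, 10 to 19, 20 or more), and bins needed 50% known bases. Segments came from a least-squares partition of Anscombe roots, observed minus expected, with a penalty of 3 times the log number of bins times the variance and at least 3 bins. Shares have Wilson intervals, and ratios exact binomial or Poisson intervals. The chromosome, the gene lists and the alternatives were chosen with earlier results of these data known. Genes were named by rule, as those with most peaks within 50 kb in the densest bins and in each list, the neighbours of the 5 widest peaks, and Myc, Fbxo32, Mb, Pfkm, Krt8, Krt18 and Ly6a. Any other gene was named with its values in view. Joining, distances and segmentation were checked on simulated data. Alternatives were either list alone, peaks of both lists only, other widths, windows, bins, classes and penalties. Intervals were computed in scipy 1.17.1 under python 3.11.15, tables in pandas 2.3.3 and numpy 2.4.6, and plots in matplotlib 3.10.9.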

Additional observations from a re-analysis of the deposited data

How the results depend on the processing

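The ratio in bins without a protein-coding start site, 3.09, fell below 1, to 0.964, without bins 24 and 63. It was 1.97 without bin 24, and both choices were made after seeing the data. The densest bin was bin 60, with 44 peaks, in the list after 36 cycles alone, and lay around Mtss1, with 57, on the shifted grid. The peak density of chromosome 15 relative to the other autosomes was 1.83 with the list after 36 cycles alone, 2.02 with peaks of both lists only and 1.90 with peaks at least as wide as the median. At matched gene density the ratio was 2.03 with the list after 36 cycles, 2.24 with peaks of both lists, 1.73 with classes of GC content in place of genes and, chosen after seeing the data, 1.55 without the 10 densest bins. Without bins 24 and 63, also chosen after seeing the data, it was 1.79. The number of segments was 4 with a penalty 0.5 times as large and 2 without the adjustment for gene density. When at least 50% of each peak had to be shared, 31.3% of peaks of chromosome 15 were called in both lists, against 23.9% elsewhere.

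The share of protein-coding start sites with a peak was 20.4% within 0.5 kb and 28.0% within 2.5 kb, and 20.4% and 14.3% with the lists after 30 and 36 cycles alone, against 10.8%, 16.3%, 11.05% and 5.98% on the other autosomes. Peaks at start sites made up 13.4% with protein-coding genes only, 11.8% within 0.5 kb and 25% within 2.5 kb. In whole peaks TGACTCA was found in 32.9% and CAGCTG in 34.3%, and in the central 100 bp in 8.80% and 10.4%. List genes with a peak numbered 98 of 196 within 10 kb, 63 within 1 kb and 156 within 50 kb. Over all 785 protein-coding genes of the chromosome the shares at these distances were 41.1%, 24.2% and 75.2%.

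No paired analysis was possible because both lists come from 1 immunoprecipitation and no result comes from a test. Replicates, read depth and inputs were not used here, so absence of a peak was not told apart from depth too low to call one.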
